A study of Mus musculus with 8 samples.

Results

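The EGF family ligands and ErbB receptors were followed in RNA of mouse kidney cortex, the outer part of the kidney that holds glomeruli and most proximal tubules. The members were chosen by name: the 6 ligand genes Egf, Areg, Ereg, Hbegf, Tgfa and Btc and the 4 receptor genes Egfr, Erbb2, Erbb3 and Erbb4. All 10 were among the 21705 gene rows of the deposited table. There were 4 libraries of mice labelled Sav1+/+ that received vehicle (called wild-type) and 4 libraries of mice labelled Sav1-/- that received tamoxifen (called Sav1-null). Both groups had a mixed background strain. Sav1 encodes salvador, a scaffold of the Hippo kinase pathway. Genotype and treatment differed together, as did the sex-chromosome transcripts given below, so they cannot be told apart. The column headers of the libraries also differ in form between the groups and repeat the same S-number suffixes in both. Whether the groups shared a sequencing run is not stated. No age of the mice is stated here, and neither is the driver of the deletion or the cell type it acts in. Whether each library is its own animal is not stated either, so a p-value reflects only how these libraries vary, and part of that may be technical.

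EGF family ligands are made as membrane-bound precursors, and metalloproteases of the ADAM family cut them free. The released ligand pairs receptors of the ErbB family, which signal through the RAS-ERK and PI3K-AKT arms and are held back by induced inhibitors. EGF, TGF-alpha and amphiregulin bind EGFR, whereas betacellulin, HB-EGF and epiregulin bind both EGFR and ERBB4. ERBB2 has no known ligand of its own and serves as a partner of the others, and ERBB3, which binds neuregulins, has very weak kinase activity and signals through a partner. In the kidney, Egf is transcribed mainly in the thick ascending limb and the distal convoluted tubule, and its product takes part in magnesium transport and tubule repair.

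The promoters of 3 members are shown: that of Egf, the ligand that was lower in the Sav1-null libraries, and those of Areg and Erbb2, which were higher and whose windows held a motif that was searched. The sequences are from RefSeq (GRCm38), where 7 members matched by symbol with 8 starts: Egf (with 2 starts), Areg, Tgfa, Btc, Egfr, Erbb2 and Erbb4. Ereg, Hbegf and Erbb3 had no entry. Each window is the 250 bases before the start. The window of Egf is at chr3:129755323-129755572 on the minus strand, that of Areg at chr5:91139349-91139598 on the plus strand and that of Erbb2 at chr11:98412234-98412483 on the plus strand. Capitals mark the motifs that were found.
Egf: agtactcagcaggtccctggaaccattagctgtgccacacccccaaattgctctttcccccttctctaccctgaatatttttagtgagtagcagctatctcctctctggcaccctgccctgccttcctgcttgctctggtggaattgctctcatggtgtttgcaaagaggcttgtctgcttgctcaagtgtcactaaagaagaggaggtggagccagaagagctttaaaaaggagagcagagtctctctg
Areg: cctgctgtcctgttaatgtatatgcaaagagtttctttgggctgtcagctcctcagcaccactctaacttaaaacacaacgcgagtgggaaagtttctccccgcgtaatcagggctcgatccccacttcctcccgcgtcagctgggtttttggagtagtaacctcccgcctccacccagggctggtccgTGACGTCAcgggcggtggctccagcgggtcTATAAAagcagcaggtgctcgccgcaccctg
Erbb2: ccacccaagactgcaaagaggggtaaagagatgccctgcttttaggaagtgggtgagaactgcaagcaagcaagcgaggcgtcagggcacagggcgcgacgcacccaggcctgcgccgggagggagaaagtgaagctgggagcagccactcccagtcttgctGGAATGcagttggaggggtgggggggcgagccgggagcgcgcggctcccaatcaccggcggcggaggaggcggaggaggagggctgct
These 5 motifs were searched on both strands in all 8 windows: the TEAD core GGAATG, the STAT motif TTCNNNGAA, the AP-1 motif TGANTCA, the cAMP response element TGACGTCA and the TATA box TATAAA. The Erbb2 window held 1 TEAD core, whose first base lies 88 bases before the start. The Areg window held 1 cAMP response element at 61 bases and 1 TATA box at 31 bases before the start, which do not overlap. None of the 5 motifs occurred in the other windows, including those of Egf. Over 32851 windows of the same length, 12.6% held the TEAD core, 7.02% the STAT motif, 6.75% the AP-1 motif, 1.55% the cAMP response element and 12.4% the TATA box. A match describes the letters only.

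Some facts of the whole series bear on every result below. Values are the authors' normalized levels, set so that the 75th percentile of nonzero genes is near 1000 per library. Comparison between libraries rests on this scaling, and alternatives to it are given below. The values are not divided by gene length. The low values fall on steps taken as the value of 1 read, which puts the depth at about 20.5 to 25.0 M reads in a wild-type library and 15.7 to 20.9 M in a Sav1-null library. Sav1 itself was at 1504, 1743, 959 and 1193 in the wild-type and at 983, 914, 982 and 714 in the Sav1-null libraries (log2 fold change -0.56 ± 0.19, SE, limma adjusted p = 0.0220), with overlapping groups and a two-sided exact permutation p of 0.0857, where 0.0286 is the smallest that 4 against 4 allow. Xist was at 9280 or more in each Sav1-null library and at 1 read in all wild-type libraries together, while 4 Y-linked genes showed the opposite, so the groups also differ in sex-chromosome transcripts, which cannot be told apart from genotype and treatment. Sav1-null replicate 4 stands apart from its group in several members and marker lists, and values that move most with it are given with and without it. Of 13677 genes tested, 69.1% were called at a limma adjusted p under 0.05, 43.9% as higher and 25.2% as lower in Sav1-null. The groups did not overlap for 65.2% of the tested genes.

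Of the 10 members, 9 averaged 10 or more across all 8 libraries and were tested. The called members were Tgfa, Btc, Areg, Erbb2 and Erbb4, which were higher, and Egf, which was lower, while Hbegf, Egfr and Erbb3 were not called. Ereg was below the filter. That is 6 of 9, beside the 69.1% of all genes called, a share close to that background, so the count says nothing particular about these genes. Areg passed the filter only through the Sav1-null group. The median log2 fold change (Sav1-null over wild-type, of log2(value + 1)) of the other 8 was 0.82, beside 0.23 for all tested genes, and 1.49 with Areg included.

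Egf, the main ligand gene of the kidney, was lower in every Sav1-null library than in any wild-type library. The wild-type values were 24841, 25120, 25133 and 27985 and the Sav1-null values 9374, 10054, 15178 and 1218. The wild-type libraries thus lie close together, and the Sav1-null libraries are spread widely, with replicate 4 far below the other 3. The group means were 25770 ± 1483 and 8956 ± 5772 (SD, n = 4), the second 34.8% of the first, and the log2 fold change was -1.99 ± 0.66 (SE, limma adjusted p = 0.0228), a 3.98-fold fall. Without Sav1-null replicate 4 the Sav1-null mean was 11535, or 44.8% of wild-type, and the log2 fold change -1.19 (limma adjusted p = 0.000107). Leaving out wild-type replicate 4 ended the call (-1.95, limma adjusted p = 0.0509), as did quantile normalization (-1.30, limma adjusted p = 0.147). In a piece of cortex, fewer cells of a type and less RNA per cell cannot be told apart.

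Of the markers of the tubule segments that make Egf, some were called lower and some higher, and Umod, Slc12a1 and Slc12a3 were not called. Relative to the wild-type mean, Egf stood at 36.4%, 39.0%, 58.9% and 4.73% in Sav1-null replicates 1 to 4, and Umod, the uromodulin gene of the thick ascending limb, at 107%, 92.5%, 121% and 51.2%. Slc12a1, the sodium-potassium-chloride cotransporter of that segment, stood at 119%, 86.6%, 141% and 30.8%. Slc12a3, the sodium-chloride cotransporter of the distal convoluted tubule, stood at 74.6%, 90.2%, 95.4% and 65.5%. All 3 are lowest in replicate 4, as Egf is, and none is as low as Egf there. None of the 3 was called (limma adjusted p = 0.556, 0.543 and 0.0570). The ratio of Egf to Umod within a library, which multiplying a library by 1 factor does not move, was 0.498, 0.508, 0.504 and 0.583 in wild-type and 0.177, 0.220, 0.254 and 0.0482 in Sav1-null libraries. The ratio of Egf to Slc12a3 was 1.38 ± 0.0532 in the wild-type group and 0.556 ± 0.323 in the Sav1-null group, without overlap. Of 7 thick ascending limb markers 3 were called higher (Kcnj1, Cldn16 and Cldn19) and 1 lower, the claudin gene Cldn10 at 19.9% to 34.3% of the wild-type mean, which is as low as Egf or lower in replicates 1 to 3. Their summed level ran from 66809 to 70596 in wild-type and from 37845, in replicate 4, to 80943 in Sav1-null libraries. Of 7 distal convoluted tubule markers 2 were called higher (Trpv5 and Slc8a1) and 2 lower (Pvalb and Klhl3), with sums of 32514 to 36493 and 29107 to 38198. The called share was 57.1% in both marker lists, beside 69.1% of all tested genes. Pvalb, the parvalbumin gene, was at 0 to 0.448% of the wild-type mean in the Sav1-null libraries and Klhl3, a regulator of salt transport, at 24.4% to 52.9%. Trpm6, a magnesium channel gene responsive to EGF, was at 90.8% to 164% and was not called. The part of these cells in the fall of Egf was not tested.

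Tgfa encodes transforming growth factor alpha, a ligand of EGFR. It was at 29.0, 29.3, 35.4 and 17.5 in the wild-type libraries and at 185, 273, 232 and 368 in the Sav1-null libraries. The groups are far apart, and replicate 4 is the highest Sav1-null library here. The means were 27.8 ± 7.47 and 265 ± 77.8, a log2 fold change of 3.20 ± 0.27 (SE, limma adjusted p = 8.11e-06), or 9.19-fold.

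Btc encodes betacellulin. Its values were 122, 115, 82.3 and 77.3 in wild-type and 364, 470, 373 and 329 in Sav1-null libraries. No library of one group comes near the other group, and replicate 4 is the lowest Sav1-null library for this ligand. The means were 99.2 ± 22.7 and 384 ± 60.6, with a log2 fold change of 1.96 ± 0.18 (SE, limma adjusted p = 1.59e-05), or 3.88-fold.

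Areg encodes amphiregulin, and it was close to the limit of detection in the wild-type group. The wild-type libraries had 2, 14, 1 and 0 reads, or values of 1.81, 11.7, 0.957 and 0, where 3 reads correspond to values between 2.34 and 3.09. The Sav1-null libraries had 30, 22, 44 and 43 reads, or values of 23.4, 21.5, 34.8 and 42.3. The groups do not overlap, and wild-type replicate 2 holds 14 of the 17 wild-type reads. That library also has the highest wild-type value of Havcr1, the gene of the injury marker KIM-1, at 1099 against 15.5 to 665 in the others. The summed level of the 10 injured tubule markers was instead highest in wild-type replicate 3, at 38153 against 35320 in replicate 2. Wild-type replicate 3 had 1 Areg read, and a link between injury and Areg was not tested. The means were 3.62 ± 5.45 and 30.5 ± 9.81, an 8.42-fold ratio of means, with a log2 fold change of 3.39 ± 0.70 (SE, limma adjusted p = 0.00194). Without wild-type replicate 2 the ratio of means was 33.0 and the log2 fold change 4.10 (limma adjusted p = 0.000128). The size of this change also depends on the pseudocount, at 3.81 with 0.5 and 1.61 with 10, and the call was kept with both.

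Hbegf, the gene of heparin-binding EGF-like growth factor, was at 730, 1050, 762 and 966 in wild-type and at 753, 615, 777 and 769 in Sav1-null libraries. The groups overlap. Its log2 fold change was -0.26 ± 0.14 (SE, 95% interval from -0.56 to 0.05, limma adjusted p = 0.119), and it turned to 0.13 with equal library totals and was called lower at -0.48 after median-of-ratios rescaling (limma adjusted p = 0.0115) and at -0.37 after quantile normalization (limma adjusted p = 0.0388). Ereg, the epiregulin gene, had no read in any wild-type library and 1, 1, 0 and 1 reads in the Sav1-null libraries, so a difference was not detectable at this depth. Counting limits given here cover counting error only.

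**Figure D1:**
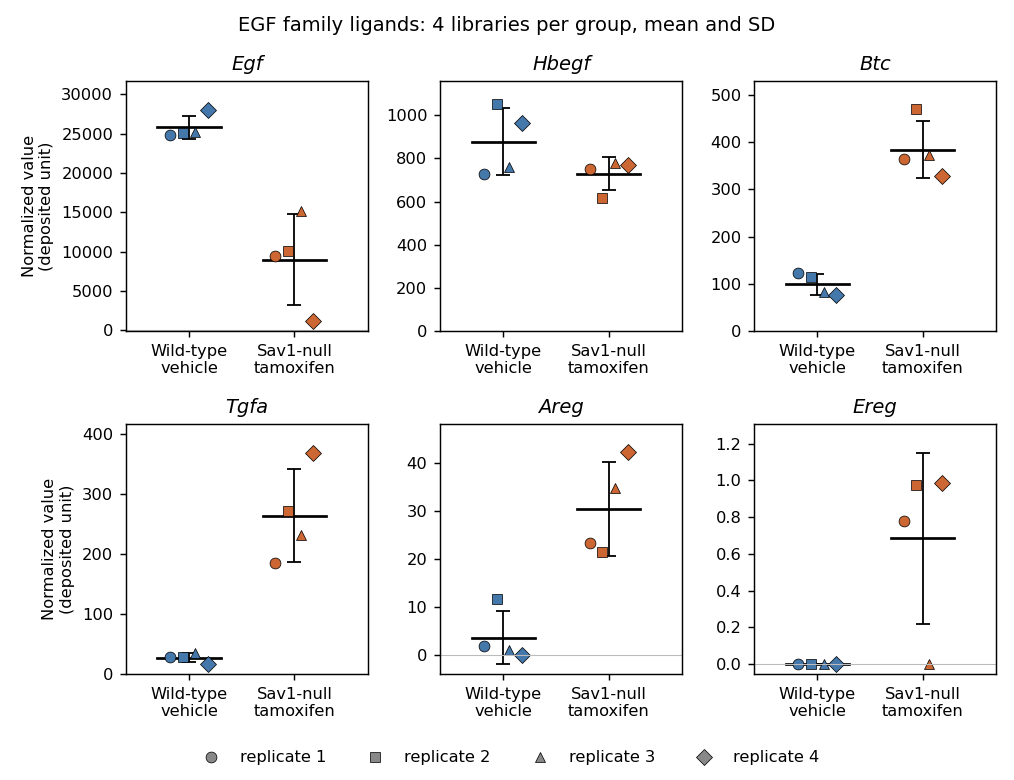
Deposited normalized values of the 6 ligand genes, 1 panel per gene with its own linear axis, by group; each symbol is a library, marked by replicate number, the horizontal line is the mean and the bar 1 SD (n = 4). Egf is lower in all 4 Sav1-null libraries, with replicate 4 at 1218, Btc, Tgfa and Areg are higher in all 4, Hbegf overlaps, and Ereg has at most 1 read per library.

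Epgn, Ereg, Areg and Btc follow each other in this order on chromosome 5 in the RefSeq gene table, with no other protein-coding gene between them, yet their levels differ widely. Epgn, the epigen gene, had values of at most 0.907 in the wild-type group and 3.91 in the Sav1-null group, and Ereg at most 0.984, while Areg and Btc were called higher. Nrg1 and Nrg4, which encode neuregulins that both bind ERBB4, went opposite ways. Nrg1 was at 172, 384, 307 and 305 in wild-type and at 1020.5, 788, 740 and 1038 in Sav1-null libraries, a 3.15-fold rise (limma adjusted p = 0.000181). Nrg4 fell 1.98-fold, from 94.4 ± 11.4 to 49.1 ± 16.3 (limma adjusted p = 0.00647). Of the 5 ligand genes in this further list, Epgn, Nrg2 and Nrg3 were below the filter, and Nrg3 was at 0 in all 8 libraries.

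The receptor genes divided into a pair that rose and a pair that was not called. Erbb2 was at 734, 674, 938 and 659 in the wild-type libraries and at 1811, 2078, 1895 and 2664 in the Sav1-null libraries. The groups are well separated, and replicate 4 is the highest library. Its means were 751 ± 129 and 2112 ± 385, with a log2 fold change of 1.49 ± 0.15 (SE, limma adjusted p = 2.29e-05), or 2.81-fold.

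Erbb4, a receptor with its own ligands and kinase activity, was at 26.3, 17.6, 18.2 and 15.5 in wild-type and at 101, 55.7, 83.7 and 47.2 in Sav1-null libraries. It is the least abundant receptor gene of the 4, resting on 15 to 29 reads in a wild-type library, and the groups do not overlap. The means were 19.4 ± 4.75 and 71.9 ± 24.8, and the log2 fold change was 1.80 ± 0.29 (SE, limma adjusted p = 0.000396), or 3.48-fold. It fell to 0.76 after quantile normalization, where it was still called (limma adjusted p = 0.0419).

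Egfr, the receptor shared by all 6 ligands, was at 1319, 1538, 1399 and 1298 in wild-type and at 1598, 1583, 1773 and 1224 in Sav1-null libraries. In 3 Sav1-null libraries it lies above every wild-type library, and in replicate 4 below every one. Its log2 fold change was 0.14 ± 0.12 (SE, 95% interval from -0.12 to 0.41, limma adjusted p = 0.294). It was called at 0.25 without Sav1-null replicate 4 (limma adjusted p = 0.0161), was called too at 0.53 where library totals were made equal, and was -0.081 after median-of-ratios rescaling. Erbb3 was at 1110, 992, 1078 and 891 in wild-type and at 897, 1121, 1247 and 1151 in Sav1-null libraries, with overlapping groups. Its log2 fold change was 0.11 ± 0.12 (SE, 95% interval from -0.15 to 0.37, limma adjusted p = 0.407). It was 0.50 and called where library totals were made equal, against -0.11 after median-of-ratios rescaling. The sign of a small change cannot be given for either.

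**Figure D2:**
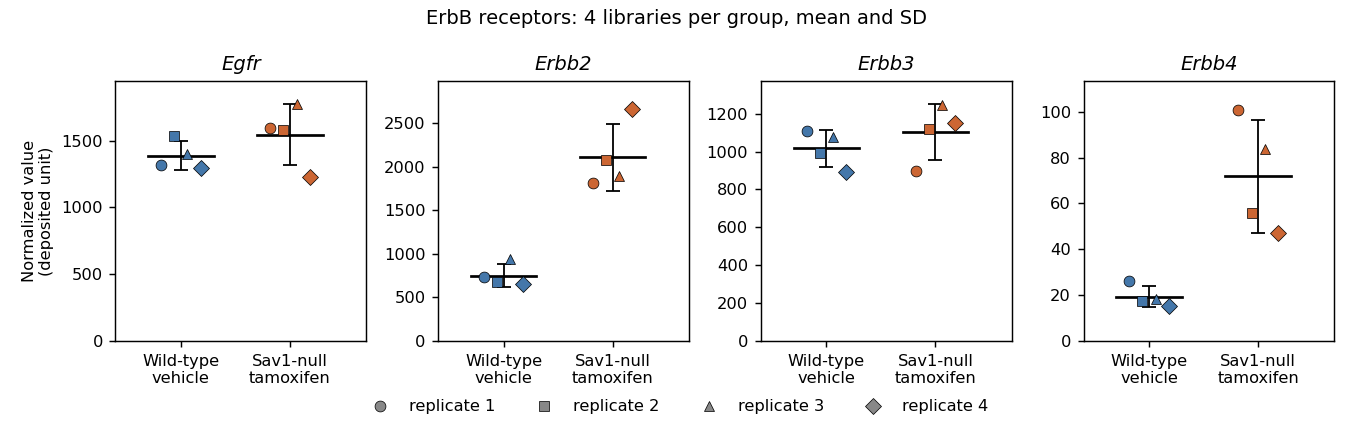
Deposited normalized values of the 4 receptor genes, 1 panel per gene with a linear axis from 0, by group; each symbol is a library, marked by replicate number, with the mean as a line and 1 SD as a bar (n = 4). Erbb2 and Erbb4 are higher in all 4 Sav1-null libraries, while Egfr and Erbb3 overlap between the groups and Egfr is lowest in Sav1-null replicate 4, at 1224.

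Scaling of the libraries set the size of the changes, and the sign of the small ones. As deposited, the median of all genes lay at 0.23 (log2). Median-of-ratios rescaling shifted it by -0.22, quantile normalization by -0.26 and equal library totals by 0.38. Of all calls, 63.5% were higher as deposited, 49.9% and 48.3% after the first and second of these and 81.7% with equal totals. Quantile normalization also changed sizes unevenly, from 3.39 to 2.12 for Areg and from 1.80 to 0.76 for Erbb4. The directions of Egf, Tgfa, Btc, Areg, Erbb2 and Erbb4 were the same under all 4 scalings, and those of Hbegf, Egfr and Erbb3 were not. Relative to the median of all genes, Egfr stood at -0.086 and Erbb3 at -0.12 as deposited.

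**Figure D3:**
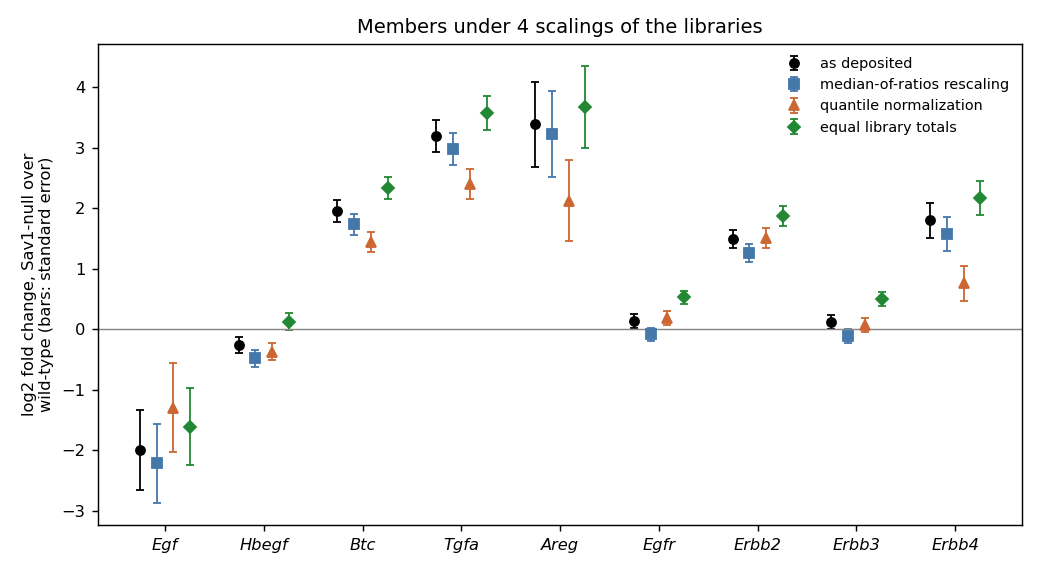
Log2 fold change of the 9 tested members (vertical axis, Sav1-null over wild-type, bars are standard errors) under 4 scalings of the libraries, marked by colour and symbol. Btc, Tgfa, Areg, Erbb2 and Erbb4 lie above 0 and Egf below 0 in each, while Hbegf, Egfr and Erbb3 cross 0.

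Levels of different genes were compared per kilobase, with the exon length of each gene in the GENCODE basic set (GRCm38). In the wild-type libraries the order of the ligands per kilobase was Egf at 5374 ± 309, Hbegf at 369 ± 65.6, Btc at 34.5 ± 7.89, Tgfa at 6.14 ± 1.65, Areg at 2.98 ± 4.49 and Ereg at 0 (SD, n = 4). Tgfa overlaps with Areg, and Areg with Ereg, since both are at 0 in replicate 4, and the other neighbours in that order do not overlap. In the Sav1-null libraries the levels per kilobase were 1868 ± 1204 for Egf, 307 ± 32.2 for Hbegf, 133 ± 21.1 for Btc, 58.4 ± 17.2 for Tgfa, 25.1 ± 8.08 for Areg and 0.166 ± 0.113 for Ereg. The order of the means was thus the same, and only Egf and Hbegf overlap between libraries. Within replicate 4, Hbegf at 324 exceeded Egf at 254.

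The make-up of the ligand transcripts differed between the groups. Egf held 93.5%, 91.3%, 93.6% and 93.0% of the summed ligand level per kilobase in the wild-type libraries and 79.5%, 80.7%, 85.5% and 31.4% in the Sav1-null libraries, whose mean was 69.3%, or 81.9% without replicate 4. The share of Tgfa, Btc and Areg together was 0.761% ± 0.225 in wild-type and was 7.59%, 9.30%, 5.66% and 28.5% in Sav1-null replicates 1 to 4. Without replicate 4 its Sav1-null mean was 7.52%. These shares do not overlap between groups. They do not move when a library is multiplied by 1 factor, and they were not computed after quantile normalization, which moves genes unequally. The summed ligand level per kilobase was 5787 ± 335 in the wild-type group and 2392 ± 1193 in the Sav1-null group (1955 to 2919 for the second with 1 library left out), whereas the sum of the other 5 ligands was 413 ± 68.2 in the wild-type group and 524 ± 26.1 in the Sav1-null group. These are levels of RNA, and the amount of ligand released was not measured.

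Among the receptors, Erbb3, Erbb2 and Egfr had similar levels per kilobase in the wild-type libraries, at 169 ± 16.3, 150 ± 25.6 and 127 ± 9.92. Erbb2 overlaps with both others, and Erbb3 lies above Egfr in every library. Erbb4 followed at 1.28 to 2.18. In the Sav1-null libraries Erbb2 stood first at 421 ± 76.8, ahead of Erbb3 at 184 ± 24.6, Egfr at 141 ± 21.0 and Erbb4 at 5.95 ± 2.05, and only Erbb3 and Egfr overlap. The share of Erbb2 in the summed receptor level was 32.3%, 30.5%, 37.8% and 32.9% in wild-type and 54.4%, 55.3%, 50.1% and 63.4% in Sav1-null libraries. The ratio of Erbb2 to Egfr within a library in the deposited values was 0.543 ± 0.0976 in the wild-type group and 1.42 ± 0.513 in the Sav1-null group (1.17 ± 0.127 without replicate 4), without overlap.

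**Figure D4:**
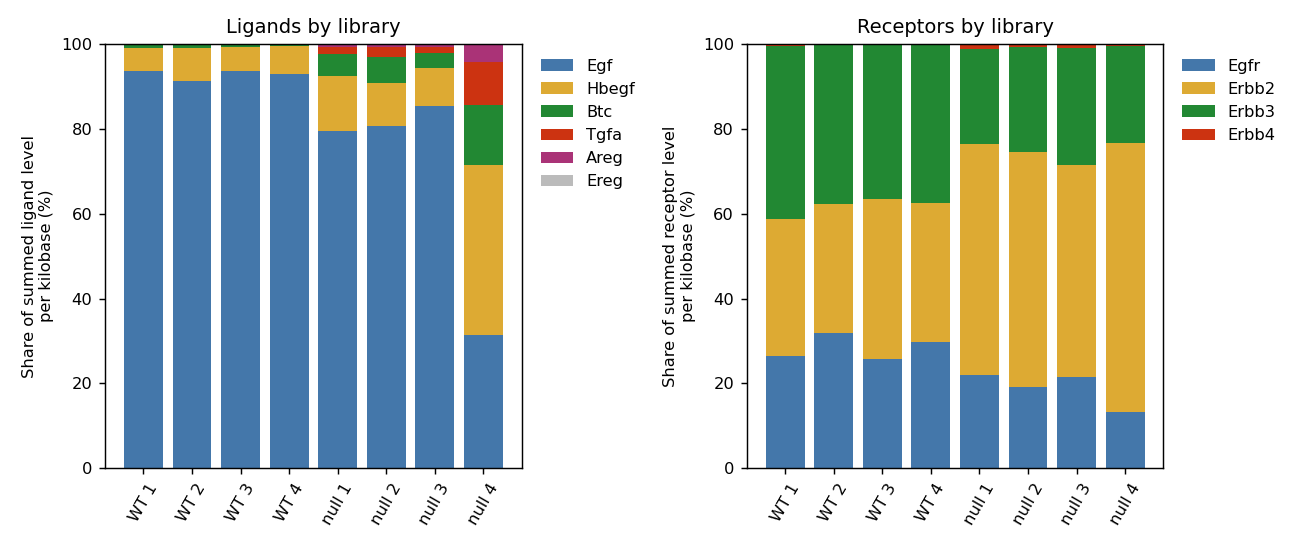
Stacked bars of the share (%) of each gene in the summed level per kilobase of the 6 ligands (left) and of the 4 receptors (right), 1 bar per library, wild-type (WT) 1 to 4 and Sav1-null (null) 1 to 4. Egf fills at least 91.3% of the ligand bar in each wild-type library and 31.4% in Sav1-null replicate 4, and Erbb2 fills 50.1% or more of each Sav1-null receptor bar.

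Genes of other cell types moved in the same libraries. The counts that follow stand beside 43.9% of all tested genes called higher and 25.2% called lower. All 8 macrophage markers were called higher, with summed levels of 894 to 1679 in the wild-type group and 6294 to 8718 in the Sav1-null group, and all 10 markers of injured tubule were called higher, with sums of 17231 to 38153 and 522295 to 838236. Of 7 markers of the collecting duct principal cell, 6 were called higher and 0 lower, with a median log2 fold change of 1.73 and sums of 10226 to 13209 and 22997 to 39809. Of 8 proximal tubule markers 7 were called lower and 0 higher. Their sums were 261627 to 302683 in the wild-type group and 26124, in replicate 4, to 78411 in the Sav1-null group. Of 7 fibroblast markers 6 were called higher and 0 lower, with sums of 479 to 1337 and 2257 to 7479. All 4 tested of the 7 lymphocyte markers were called higher, with sums of 45.0 to 52.6 and 144 to 181. Neither of 2 tested neutrophil markers was called, with sums of 2.06 to 15.4 and 8.59 to 303, the last in replicate 4, and Elane was at 0 throughout. All 6 urothelium markers were below the filter, with sums of at most 9.57 in the wild-type group and 48.2 in the Sav1-null group. Of 5 endothelial markers 1 was called lower, with sums of 1928 to 2311 and 689 to 1993. Injured tubule, macrophages and collecting duct cells are all able to express EGF family ligands or receptors, and their part in the rise of Tgfa, Btc, Areg, Erbb2 and Erbb4 was not tested.

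Genes of ligand shedding and trafficking were mostly higher, in a list that also holds the protease inhibitor genes Timp3 and Spint1. Of 10 sheddase and trafficking genes 7 rose, 2 fell and 1 was not called, with a median log2 fold change of 0.76. The called share was 90.0%, beside 69.1% of all tested genes, and 43.9% of all tested genes were called higher. Adam17, the main protease that frees TGF-alpha, amphiregulin and HB-EGF, was at 795, 870, 711 and 763 in wild-type and at 1227, 1191, 1191 and 1158 in Sav1-null libraries, a 1.52-fold rise (limma adjusted p = 0.000102). Adam10, the protease known to free betacellulin and EGF, rose 1.93-fold (1528 ± 166 to 2949 ± 299, limma adjusted p = 3.89e-05). Rhbdf2, which encodes the ADAM17 escort iRhom2, rose 2.93-fold (264 ± 49.6 to 784 ± 210, limma adjusted p = 8.62e-05). Timp3, the gene of a matrix-bound inhibitor of ADAM17, fell 3.34-fold, from 77393 ± 8565 to 23393 ± 4272 (limma adjusted p = 2.10e-05), and by 0.72 on the log2 scale after quantile normalization. Adam9 fell 1.47-fold. The protease genes Adam10 and Adam17 thus moved opposite to the inhibitor gene Timp3 in these libraries. The other inhibitor gene of the list, Spint1, was called higher, the same way as these proteases. Adam9, also a protease gene, moved the same way as Timp3, and Adam15 was not called. Shedding itself was not measured.

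The 7 surface partners of ErbB receptors and their ligands all rose, with a median log2 fold change of 3.52. Of all tested genes, 43.9% were called higher, and this list was chosen with earlier results of these data known. Cd9, a tetraspanin that binds membrane-anchored HB-EGF, rose 3.96-fold (1589 ± 133 to 6300 ± 535, limma adjusted p = 5.38e-07). Itgb4, an integrin gene, rose 14.7-fold (limma adjusted p = 1.27e-05), or 11.3-fold without Sav1-null replicate 4. Muc1, a membrane mucin gene, rose 11.4-fold (limma adjusted p = 1.86e-05), or 8.67-fold without that library. In the Sav1-null group Muc1 was spread widely, at 1647, 2140, 1718 and 5507, with replicate 4 highest.

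Of 20 adaptor and RAS-ERK genes 8 rose, 6 fell and 6 were not called, with a median log2 fold change of -0.03. The called share, 70.0%, is close to the 69.1% of all tested genes. The RAS gene Nras rose 2.17-fold (limma adjusted p = 1.32e-05), Mapk3, which encodes the kinase ERK1, 1.76-fold (limma adjusted p = 0.000110) and the adaptor gene Shc1 by 0.49 on the log2 scale (limma adjusted p = 0.000333). Eps8, an EGFR substrate, fell 1.61-fold (limma adjusted p = 0.00774), and the kinase gene Araf fell 1.20-fold (limma adjusted p = 0.0225). Araf turned to 0.12 on the log2 scale with equal library totals. The number that fell was 10 under median-of-ratios rescaling, 3 under quantile normalization and 0 where totals were made equal, and it was 3, 3 and 2 without wild-type replicate 3, Sav1-null replicate 1 and Sav1-null replicate 2, and the call of Araf was lost in each of these. Of 10 genes of the PI3K-AKT arm 4 rose, 2 fell and 4 were not called, with a median log2 fold change of -0.03. The regulatory subunit genes Pik3r3 and Pik3r1 rose 2.16-fold and 2.05-fold, while the catalytic subunit genes Pik3ca and Pik3cb fell 1.41-fold and 1.32-fold (limma adjusted p between 0.000104 and 0.0269 for these 4). The number that fell was 0 with equal library totals and 1 without wild-type replicate 1, wild-type replicate 3 or Sav1-null replicate 2, where Pik3cb lost its call.

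Of 20 feedback inhibitor genes 10 rose, 4 fell and 6 were not called, with a median log2 fold change of 0.29. The called share is again 70.0%, beside 69.1% of all tested genes. Spry1 and Spry2, which encode sprouty inhibitors of RAS-ERK signalling, rose by 4.44-fold (limma adjusted p = 3.05e-06) and by 2.11-fold (limma adjusted p = 5.51e-05). Cblb, a ubiquitin ligase gene of receptor turnover, rose 2.23-fold (limma adjusted p = 2.38e-05). Errfi1 went the other way. It encodes MIG6, which binds the kinase domains of ErbB receptors and blocks them. Errfi1 was at 19655, 19413, 14235 and 15687 in wild-type and at 7753, 5148, 9616 and 3188 in Sav1-null libraries. Every Sav1-null library is below every wild-type library, with replicate 4 lowest, and the fall was 2.89-fold (log2 fold change -1.53 ± 0.31, SE, limma adjusted p = 0.00159). After quantile normalization it was -0.88 (limma adjusted p = 0.0346). The ratio of Errfi1 to Egfr in the deposited values was 12.4 ± 1.94 in the wild-type group and 4.03 ± 1.32 in the Sav1-null group, without overlap. Lrig1, a transmembrane inhibitor gene that promotes loss of ErbB receptors, fell 1.56-fold, and the ERK phosphatase gene Dusp4 fell 1.82-fold (limma adjusted p = 0.00333 and 0.00138). The counts of the list were 5 higher after median-of-ratios rescaling, 6 higher and 7 lower after quantile normalization, and 2 lower with equal library totals.

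Of 12 transcripts that ERK signalling is known to induce, 11 were tested, and 9 rose and 2 fell, with a median log2 fold change of 2.45. Of all tested genes, 69.1% were called, 43.9% as higher and 25.2% as lower. Myc rose 12.4-fold, from 59.1 ± 18.6 to 729 ± 151 (limma adjusted p = 2.13e-06), and Epha2, an ephrin receptor gene, 5.47-fold (limma adjusted p = 5.25e-06). Egr1, an immediate early transcription factor gene, was at 50.8, 101, 142 and 96.9 in wild-type and at 908, 872, 879 and 1614 in Sav1-null libraries, an 11.1-fold rise (limma adjusted p = 1.23e-05). Against these, the ETS factor gene Etv5 and the cyclin gene Ccnd1 fell 1.86-fold and 1.75-fold (limma adjusted p = 7.88e-05 and 0.000333), and after quantile normalization Ccnd1 was not called (-0.20, limma adjusted p = 0.137). Many other signals induce these genes too, and tissue handling moves some of them, which was not tested.

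**Figure D5:**
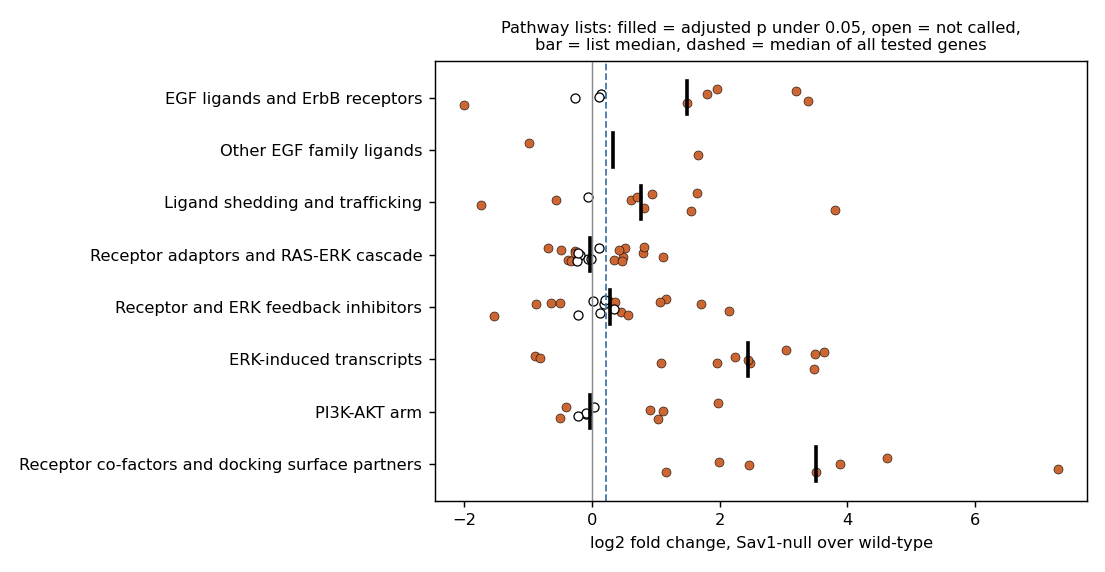
Log2 fold change (horizontal axis, Sav1-null over wild-type) of each tested gene of the members and of 7 lists of pathway genes (rows); filled points have an adjusted p under 0.05, open points do not, thick bars are list medians, and the dashed line is the median of all tested genes at 0.23. The surface partners and the ERK-induced transcripts lie mostly to the right, with medians of 3.52 and 2.45, while the adaptor and PI3K-AKT lists are centred near 0.

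For the ligand and the receptor with the highest level per kilobase over all libraries, the genes with the most similar pattern were sought by the root mean square difference of centred log2 values over the 8 libraries. For Egf, whose own log2 values span 4.52, these were Prex2, a RAC exchange factor gene, at a difference of 0.18, Akr1b7, an aldo-keto reductase gene, at 0.27 and Tmem207 at 0.28. Each has its lowest value in Sav1-null replicate 4, where Prex2 was at 20.7 against 148 to 209 in the other Sav1-null libraries and 343 to 442 in wild-type. For Erbb2, whose log2 values span 2.01, they were Pla2g15, a lysosomal phospholipase gene, at 0.0793, Shroom3, a gene of epithelial cell shape, at 0.0839 and Osbpl7 at 0.11. Each of these is highest in Sav1-null replicate 4, with Shroom3 at 1882 there against 1360 to 1433 in the other Sav1-null libraries.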

How the data were processed

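The deposited table held 1 signal per gene and library, normalized by the authors. Per the submitters' processing notes, RSEM, SAMtools and Picard 1.64 were used with the mouse build mm9; per the labels' protocols, libraries were made with a stranded mRNA kit. For the aligner, the annotation and strand use in counting: not given in the sources used here. From 92.7% to 93.3% of the values below 400 lay within 0.02 of a whole number of reads. No count model was used, because the deposited values are normalized and are not counts. Pairs of libraries within a group differed by more than counting error (chi-square divided by its degrees of freedom, 12.9 to 114).

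Genes with a mean of at least 10 were compared as log2(value + 1) in R 4.3.3 with limma 3.58.1 (intensity trend, 6 residual degrees of freedom), with Benjamini-Hochberg adjustment over 13677 genes and calls at an adjusted p under 0.05. This removed 8028 rows. Fold changes are antilogs of the fitted log2 values, in which the added 1 draws low genes toward no change. They can also differ from a ratio of means, as for Areg (10.5-fold against 8.42-fold). The method was tested on simulated data in which few genes changed and no library stood apart, a setting unlike these data. Members, lists and alternatives were chosen with earlier results of these data known. From each pathway list, up to 3 called genes per direction with the smallest p were named, except some that are not reported here; Havcr1, Xist and the marker genes were chosen after their values were seen. List names were also matched through RefSeq synonyms.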

Additional observations from a re-analysis of the deposited data

Results flagged for a closer look

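A library was singled out where its gap to the nearest other library of its group of 4 exceeded Dixon's 95% critical share of the range. Of 132 groups of values looked at, 16 were singled out, where chance gives about 1 in 20, and many of these values share a library. In Sav1-null replicate 4, Egf held 31.4% of the ligand level per kilobase, Hbegf 40.0%, Tgfa 10.1%, Areg 4.31% and Tgfa, Btc and Areg together 28.5%. These are shares of 1 sum, in which Egf was low, so they move together. Per kilobase, Hbegf was at 324 there against 259 to 327 in the other Sav1-null libraries. Tgfa (81.3 against 40.9 to 60.2) and Areg (34.8 against 17.7 to 28.6) were highest there. In the same library Egr1 was at 1614, Muc1 at 5507 and Shroom3 at 1882, each above the other 3. In wild-type replicate 4, Egf was at 27985, above 24841 to 25133, and the ratio of Egf to Umod was 0.583. In wild-type replicate 2, Areg was at 11.7, its share of the ligand level was 0.168%, and Cblb was at 254. In wild-type replicate 1 the share of Erbb4 in the receptor level was 0.480%. In Sav1-null replicate 2 Hbegf was at 615, below 753 to 777, and in Sav1-null replicate 3 Nras was at 1312, below 1438 to 1451. No explanation of these values was tested.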

How the results depend on the processing

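Tgfa, Btc and Erbb2 kept their direction and call in all 17 alternatives run, and Areg and Erbb4 in all 16 in which they passed the filter. Egf kept its direction in 17 and its call in 15, with log2 fold changes from -2.40 to -1.19. Of the members, 3 were called higher with a filter at a mean of 100, which removes Areg and Erbb4, and 5 to 6 with a library left out. The number called lower was 2 after median-of-ratios rescaling (Egf and Hbegf) and 0 to 1 with a library left out. After quantile normalization it stayed at 1, with Hbegf in place of Egf. Signs turned for Hbegf with equal library totals (0.13) and for Egfr (-0.081) and Erbb3 (-0.11) after median-of-ratios rescaling, and for Araf with equal totals (0.12). Quantile normalization moved Nrg4 to -1.89 and Dusp4 to -1.46. The replicate numbers of the titles do not pair the libraries (correlations of same-numbered deviations 0.144, 0.0762, -0.169 and 0.135; numbers 2 and 4 correlate best with their own number, 1 and 3 do not). With the replicate number as a block, 5 members were called higher and 1 lower, as without it, and 5927 genes were called higher and 3391 lower in place of 6002 and 3452. With equal library totals 1946 genes were called lower. In the lists, the number called lower with equal totals was 1 for ligand shedding, 0 for adaptors and for the PI3K-AKT arm, and 2 for inhibitors. After median-of-ratios rescaling it was 10 for adaptors, and 5 inhibitors were higher. After quantile normalization it was 3 for adaptors, 7 for inhibitors (6 higher) and 1 for ERK-induced transcripts, and with the filter at 100 it was 0 for the other ligands. With a library left out it ran from 2 to 5 for adaptors and from 1 to 2 for the PI3K-AKT arm. With the longest transcript as gene length, each of the shares and the ligand sum compared moved by less than 1 SD. Depth limits Areg in wild-type libraries and Ereg in all.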
